A study of Homo sapiens with 6 samples.

Results

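The 10 genes described here, AXIN2, NKD1, RNF43, ZNRF3, NOTUM, LGR5, TCF7, LEF1, ASCL2 and SP5, were taken by name as a list of well known targets of canonical Wnt signalling, out of 28307 genes in the deposited gene tables. They were followed in SW480, an established human colon adenocarcinoma cell line. Polyadenylated RNA was sequenced from cells that stably carried pLENTI CMV Clover, a lentiviral vector that encodes a fluorescent protein (3 control libraries), or pLENTI CMV Z18trunc, the same vector with a shortened ZC3H18, a protein of nuclear RNA surveillance (3 libraries). Both groups were the same cell line with its own ZC3H18 gene, and both went through transduction and puromycin selection. Per the study's methods the 3 lines of a group were made separately, and the CMV promoter drove the construct in both. The rule that names the 10 genes uses no measured value, but they were listed with earlier results of these data known.

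In canonical Wnt signalling, a destruction complex that contains APC and AXIN proteins marks β-catenin for degradation. When Wnt ligands inactivate that complex, or when APC is mutated as it is known to be in SW480 cells, β-catenin builds up, enters the nucleus and activates genes through the TCF and LEF DNA-binding proteins. Many of the strongest targets act back on the pathway. AXIN2 is a scaffold of the destruction complex, NKD1 binds Dishevelled inside the cell, RNF43 and ZNRF3 are membrane ubiquitin ligases that remove Frizzled receptors, NOTUM is a secreted enzyme that strips the lipid from Wnt ligands, LGR5 is a receptor for R-spondins, TCF7 and LEF1 are TCF/LEF factors themselves, ASCL2 is a transcription factor of intestinal stem cells, and SP5 is a zinc finger transcription factor.

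TCF/LEF proteins recognise a short DNA word that has several forms, of which 2 were searched here. SP5 is shown first because its promoter carries these 2 forms more often than almost any other promoter. RefSeq promoters (GRCh38.p14, from 250 bases before to 50 after the annotated start) were present for 4 of the 10 genes, SP5, LEF1, TCF7 and RNF43, and were not used here for AXIN2, NKD1, ZNRF3, NOTUM, LGR5 and ASCL2. The words CTTTGAT and CTTTGAA were searched on both strands, and other forms of the TCF/LEF word were not searched. Among 35116 promoters of the same length, 2.62% held CTTTGAT, 4.43% held CTTTGAA and 6.86% held at least 1 of the words. The SP5 promoter held 3, a number reached by 9 promoters (0.0256%). CTTTGAT began 109 bases before the start on the strand of the gene, and CTTTGAA lay on the opposite strand, 148 and 84 bases before the start by its first letter in the sequence as printed. Neither of these 2 words was present in the LEF1 promoter window, the 2 TCF7 windows or the 2 RNF43 windows. Whether those windows hold other forms was not tested. The windows of SP5 and the first of RNF43 lie at the gene start in the deposited tables, while those of LEF1 and TCF7 and the second of RNF43 belong to starts 932 to 14813 bases inside the gene. The SP5 promoter (chr2:170715087-170715386, plus strand) and, for comparison, the first RNF43 promoter (chr17:58417485-58417784, minus strand) read as follows, with the searched words in capitals. A match is a description of letters and not a measured binding site.
SP5: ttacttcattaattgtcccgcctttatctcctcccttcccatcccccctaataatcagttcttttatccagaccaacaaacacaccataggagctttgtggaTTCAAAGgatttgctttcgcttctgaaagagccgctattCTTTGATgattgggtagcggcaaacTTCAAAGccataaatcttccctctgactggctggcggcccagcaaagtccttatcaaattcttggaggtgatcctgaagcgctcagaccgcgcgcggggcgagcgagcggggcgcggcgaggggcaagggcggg
RNF43: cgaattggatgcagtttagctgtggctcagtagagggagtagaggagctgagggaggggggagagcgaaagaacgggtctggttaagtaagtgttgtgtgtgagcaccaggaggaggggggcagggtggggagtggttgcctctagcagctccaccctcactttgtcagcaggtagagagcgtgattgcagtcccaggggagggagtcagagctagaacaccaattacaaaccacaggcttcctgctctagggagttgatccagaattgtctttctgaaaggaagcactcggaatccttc

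The libraries held 18226033 to 22463310 aligned fragments, and abundance was deposited as TPM, a measure of transcript abundance that corrects for transcript length and has the same sum in each library. ZC3H18, the gene supplied by the vector, checked the labels, with 51.3 to 61.8 TPM in the Clover and 739 to 798 TPM in the Z18trunc libraries (log2 change 3.72, SE 0.09, limma adjusted p = 3.21e-05). The cell line was checked against its markers. Of 11 colon epithelium markers 7 had a mean of at least 1 TPM, with a summed level of 23320 to 24910 TPM in Clover and 22870 to 23980 TPM in Z18trunc, while KRT20 and CDX1 were listed at 0 in all 6 libraries. The summed level over 6 melanocyte markers was at most 5.09 TPM, over 5 fibroblast markers at most 2.28 TPM and over 5 blood and endothelium markers at most 4.83 TPM. A mean of at least 1 TPM was reached by 2, 1 and 1 of these markers, and MLANA, TYR, COL3A1, DCN, PTPRC and PECAM1 were listed at 0.

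Of the 10 target genes, 9 were expressed in every library, at 22.3 to 223 TPM, and LGR5 was listed at 0 in all 6. The 9 genes passed the filter on low values, a mean of at least 1 TPM, which 13300 genes passed. The genes of the list added up to 993, 969 and 1034 TPM in the Clover and to 1068, 1065 and 981 TPM in the Z18trunc libraries, and these sums overlapped. SP5 and AXIN2 were the most abundant, with 6.02% and 6.49% of tested genes above them, followed by ASCL2 (7.58%) and NOTUM (8.12%). TCF7 had 12.3% of tested genes above it, NKD1 17.4%, RNF43 25.6%, LEF1 29.2% and ZNRF3 35.7%.

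The order of the levels was nearly the same in both groups. In Clover it ran from SP5 (213 ± 15.4 TPM, SD, n = 3) through AXIN2 (182 ± 20.4 TPM), ASCL2 (172 ± 8.28 TPM) and NOTUM (162 ± 7.43 TPM), and each neighbour in this group of genes overlapped the next. Below NOTUM came TCF7 (103 ± 8.24 TPM), NKD1 (63.4 ± 9.28 TPM), RNF43 (42.7 ± 4.80 TPM), LEF1 (35.5 ± 4.55 TPM) and ZNRF3 (25.8 ± 3.06 TPM), and no 2 neighbours there overlapped. In Z18trunc AXIN2 (206 ± 12.1 TPM, SD, n = 3) and SP5 (205 ± 11.3 TPM) exchanged places and could not be told apart, and the others kept their order.

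**Figure D1:**
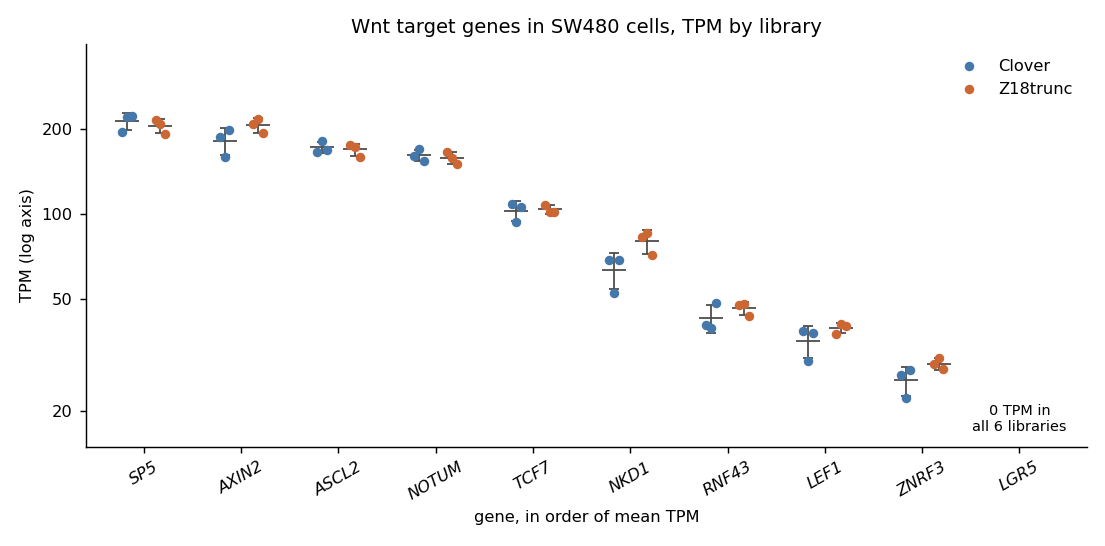
TPM (log axis) of the 10 Wnt target genes in 3 Clover libraries (blue) and 3 Z18trunc libraries (orange), with the mean and SD of each group as bars. SP5, AXIN2, ASCL2 and NOTUM lie between 150 and 223 TPM, ZNRF3 lies lowest of the expressed genes between 22.3 and 30.9 TPM, and LGR5 has no point because it is at 0 TPM.

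To ask whether Z18trunc changed this set of targets, Z18trunc was compared with Clover. None of the 9 tested genes passed limma on log2(TPM + 1) after Benjamini-Hochberg adjustment over 13300 genes. In all, 2 genes (0.0150%) were called, 1 higher in Z18trunc, which was ZC3H18 itself, and 1 lower. On the log2(TPM + 1) scale, 6 of the 9 were higher and 3 lower in Z18trunc. Their median change was 0.12, beside a median of 0.11 over all tested genes. Of the 9, 5 changes lay above that median change, but when each library was centred on its own median level 3 lay above 0. After quantile normalization, which gives every library the same distribution, the median change was 0.02 for the 9 genes and -0.01 for all tested genes. At an unadjusted p under 0.05 NKD1 was the only member higher in Z18trunc, and 25.6% of all tested genes were higher at that level. The 3 Z18trunc libraries lay above the 3 Clover libraries for NKD1 and ZNRF3, as they did for 30.1% of tested genes, and below them for no member, against 6.73% of tested genes. Neither share of the members lay above that of all tested genes. In bulk RNA, fewer cells that express a gene and less of its RNA per cell cannot be told apart. An exact permutation test of 3 against 3 libraries cannot go below p = 0.1.

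The genes of feedback inside the cell held the largest difference. NKD1 (hg38, chromosome 16, 50548396 to 50649249, plus strand) had 68.8, 52.7 and 68.7 TPM in Clover and 82.7, 85.7 and 71.4 TPM in Z18trunc. All Z18trunc values were above all Clover values, with the second Clover library far below the others and the third Z18trunc library close to the other 2 Clover libraries. This made a log2 change of 0.34 (SE 0.13) and a limma adjusted p of 0.153, or a 1.26-fold difference with a 95% interval from 1.02-fold to 1.57-fold. After quantile normalization it was 0.26, and without Clover replicate 2 it was 0.21 (limma adjusted p = 0.274).

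AXIN2 (chromosome 17, 65528565 to 65561648, minus strand) is often used as a readout of β-catenin activity. It had 187, 159 and 199 TPM in Clover and 208, 218 and 194 TPM in Z18trunc. The groups overlapped, since Clover replicate 3 was above Z18trunc replicate 3, and Clover replicate 2 was again the lowest. On the log2 scale AXIN2 differed by 0.19 (SE 0.10, limma adjusted p = 0.281), and the 95% interval ran from 0.96-fold to 1.35-fold. Without Clover replicate 2 the log2 change was 0.09. Its relative AXIN1, a constant scaffold of the same complex, gave 55.9 ± 1.32 TPM (SD, n = 3) in Clover and 54.7 ± 3.33 TPM in Z18trunc, so that AXIN2 held 74.3% to 79.3% of AXIN1 and AXIN2 together over the 6 libraries. NKD2, the relative of NKD1, had 86.2 ± 5.73 TPM in Clover and 87.4 ± 4.78 TPM in Z18trunc. These relatives, like those named with the TCF/LEF and LGR families, were chosen after their values were seen.

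Among the membrane ubiquitin ligases, ZNRF3 differed by about as much as AXIN2 and RNF43 by less. ZNRF3 (chromosome 22, 28883572 to 29057488, plus strand) had 26.9, 22.3 and 28.1 TPM in Clover and 29.3, 30.9 and 28.2 TPM in Z18trunc. The groups did not overlap, but the highest Clover and the lowest Z18trunc library were nearly equal. ZNRF3 differed by 0.19 on the log2 scale (SE 0.10, limma adjusted p = 0.264), with an interval from 0.97-fold to 1.35-fold, and it was 0.10 without Clover replicate 2. RNF43 (chromosome 17, 58352500 to 58417534, minus strand) had 40.5, 39.4 and 48.2 TPM in Clover and 47.5, 47.9 and 43.5 TPM in Z18trunc. Clover replicate 3 was the highest of all 6 libraries, so the groups overlapped, and they differed by 0.12 on the log2 scale (SE 0.10, limma adjusted p = 0.469, 0.92-fold to 1.28-fold). Without Clover replicate 2 that difference was 0.06, and without Clover replicate 3 it was 0.21.

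NOTUM (chromosome 17, 81952507 to 81961187, minus strand), the secreted Wnt deacylase, had 161, 169 and 154 TPM in Clover and 166, 158 and 150 TPM in Z18trunc. The values interleaved. NOTUM differed by -0.03 on the log2 scale (SE 0.08, limma adjusted p = 0.81), and its 95% interval ran from 0.86-fold to 1.11-fold, which bounds the difference more tightly than for NKD1.

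TCF7 and LEF1 are both targets and effectors of the pathway. TCF7 (chromosome 5, 134114681 to 134148229, plus strand) had 109, 93.3 and 106 TPM in Clover and 108, 102 and 102 TPM in Z18trunc, with complete overlap. Its log2 change of 0.02 (SE 0.08, limma adjusted p = 0.909, 0.88-fold to 1.16-fold) turned to -0.02 after quantile normalization. LEF1 (chromosome 4, 108047545 to 108168956, minus strand) had 38.4, 30.2 and 37.8 TPM in Clover and 37.6, 40.6 and 40.2 TPM in Z18trunc. Clover replicate 2 was again lowest, and Z18trunc replicate 1 lay just below the other 2 Clover libraries. LEF1 differed by 0.16 on the log2 scale (SE 0.11, limma adjusted p = 0.377, 0.93-fold to 1.33-fold), or 0.05 without Clover replicate 2.

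Among the 4 TCF/LEF factors, TCF7 had the highest RNA level in these cells, with 59.3% to 64.5% of their summed TPM. Protein and the separate transcripts of each gene were not examined. LEF1 held 20.9% to 23.7%, TCF7L2 8.06% to 10.2% and TCF7L1 5.65% to 6.81%. The share of TCF7 was 63.3% ± 1.04 (SD, n = 3) in Clover and 60.7% ± 1.69 in Z18trunc, and the share of TCF7L2 was 8.80% ± 0.74 and 10.1% ± 0.13. TCF7L2 itself, the factor most often linked to β-catenin in the intestine, had 14.4 ± 2.49 TPM in Clover and 17.3 ± 0.12 TPM in Z18trunc (log2 change 0.27, SE 0.12, limma adjusted p = 0.208).

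ASCL2 (chromosome 11, 2268498 to 2270588, minus strand) had 166, 181 and 169 TPM in Clover and 175, 173 and 160 TPM in Z18trunc. SP5 (chromosome 2, 170715337 to 170718078, plus strand), whose promoter is printed above, had 195, 221 and 223 TPM in Clover and 214, 209 and 193 TPM in Z18trunc. Both genes interleaved between the groups, and for both Z18trunc replicate 3 was the lowest of the 6 libraries. The log2 change was -0.02 for ASCL2 (SE 0.08, limma adjusted p = 0.871, 0.87-fold to 1.12-fold) and -0.05 for SP5 (SE 0.09, limma adjusted p = 0.718, 0.84-fold to 1.11-fold).

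**Figure D2:**
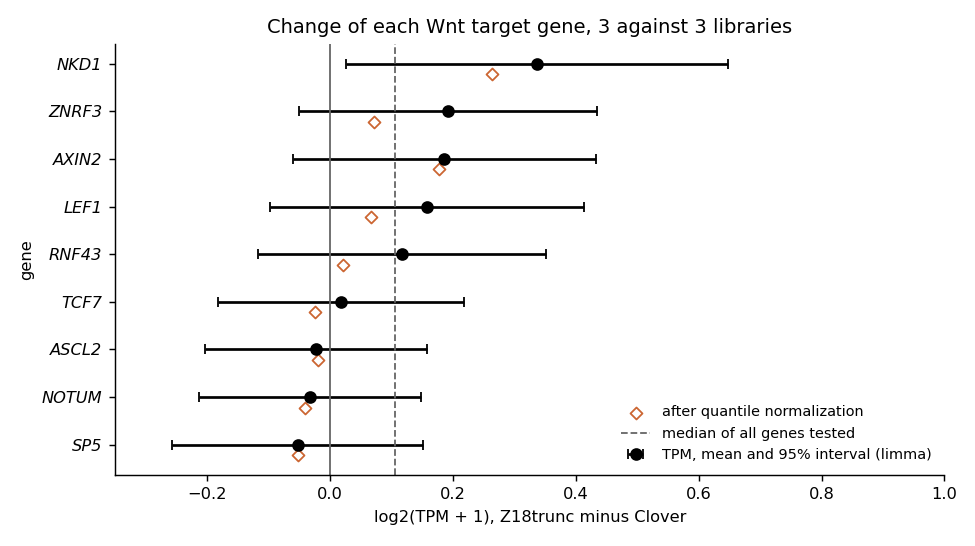
Difference in log2(TPM + 1), Z18trunc minus Clover, for the 9 tested genes, with 95% intervals from limma (3 against 3 libraries), the value after quantile normalization (open diamonds) and the median of all genes tested (dashed line). NKD1 lies highest at 0.34 and SP5 lowest at -0.05, and no gene passed the adjusted threshold.

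LGR5 (chromosome 12, 71439798 to 71586308, plus strand), the marker of intestinal stem cells, was listed at 0 TPM in all 6 libraries. Such a value was common, since 16878 to 17218 of the 28307 genes were above 0 in a library. None of 73 ribosomal protein genes was listed at 0, but these are abundant (median 1847 to 2063 TPM by library) and say nothing about low genes. The gene tables hold no counts, so the listed 0 was assumed to be a count of 0, which allows at most 3 fragments. On that assumption the canonical LGR5 transcript of 4583 bases could have held up to 0.0605 to 0.077 TPM. The limit depends on the library and covers counting error only. No fold change was computed. The tables of repeat elements, which list every element with fragments on either strand, held no line within the 146511 bases of LGR5. Of 3809 genes with a span of at least 100000 bases, 140 (3.68%) had no such line.

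The other R-spondin receptors were present. LGR6 made up 93.6% to 96.8% of the summed LGR4, LGR5 and LGR6 TPM. It had 41.0, 40.4 and 44.8 TPM in Clover and 36.2, 33.3 and 31.1 TPM in Z18trunc, with all Z18trunc values lower. It differed by -0.32 on the log2 scale (SE 0.09) and did not pass (limma adjusted p = 0.0865). LGR4 was much lower, at 1.51 ± 0.17 TPM (SD, n = 3) in Clover and 1.91 ± 0.20 TPM in Z18trunc (log2 change 0.21, SE 0.09, limma adjusted p = 0.17).

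The members differed in how they varied between libraries of the same group. Clover replicate 2 lay below the mean of the other Clover libraries for AXIN2, NKD1, RNF43, ZNRF3, TCF7 and LEF1, by 0.16 to 0.38 on the log2 scale. For NOTUM, ASCL2 and SP5 it lay above by 0.08 to 0.12. The same 2 sets of genes differ in base composition, which was looked at after these values were seen. The canonical GENCODE 44 transcripts of the first set have 51.5% to 57.2% GC and 3288 to 17039 bases, and those of the second set 65.7% to 69.6% GC and 1485 to 2223 bases. Over all tested genes with such a transcript, Clover replicate 2 differed from the mean of the other Clover libraries by a median of -0.16 for 8449 genes under 55% GC, -0.04 for 2118 genes from 55% to 60% GC and 0.02 for 2253 genes of at least 60% GC. The median change in Z18trunc was 0.21, -0.01 and -0.05 in those classes, and 0.15, -0.03 and -0.05 without Clover replicate 2. Centring each gene on genes of like transcript length and GC, an alternative added after the data were seen, gave log2 changes of 0.10 for NKD1, 0.14 for AXIN2, 0.09 for ZNRF3, 0.07 for RNF43, 0.05 for LEF1 and 0.01 to 0.06 for TCF7, NOTUM, ASCL2 and SP5.

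**Figure D3:**
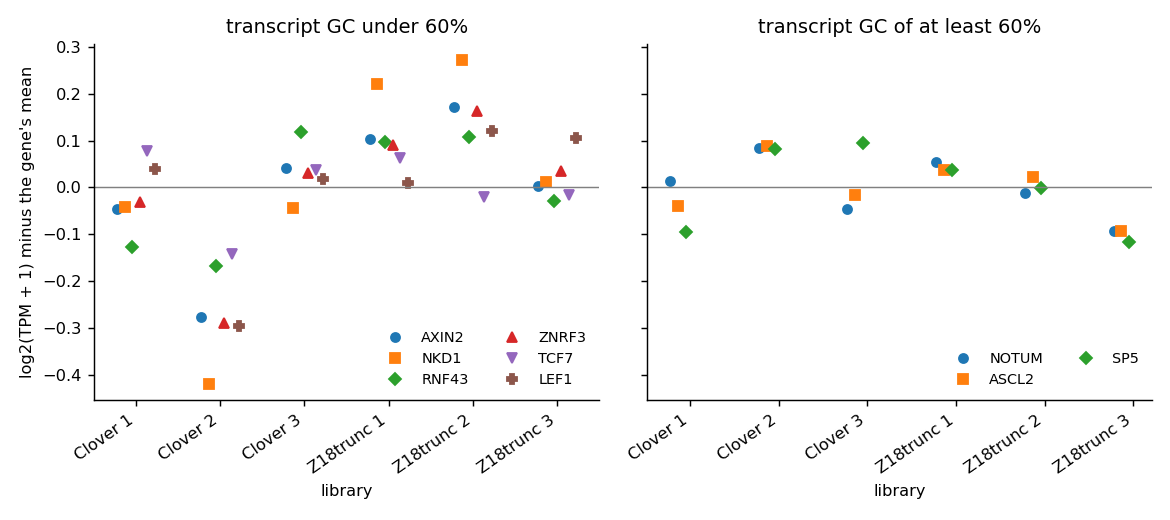
Each gene's log2(TPM + 1) minus its own mean over the 6 libraries, for genes whose transcript has under 60% GC (left) and at least 60% GC (right). On the left every gene is lowest in Clover replicate 2, down to -0.42 for NKD1, and on the right the 3 genes lie 0.08 to 0.09 above their mean in that library and are lowest in Z18trunc replicate 3.

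The 2 genes outside the lists whose profile over the 6 libraries was nearest to the mean profile of the 9 members were MGRN1 and DLST. Their root mean square difference from it was 0.0172 and 0.0179 on the log2 scale, beside a median of 0.133 over the 9895 candidate genes with a mean of at least 5 TPM. The mean profile was -0.03, -0.15 and 0.03 in the Clover and 0.08, 0.09 and -0.02 in the Z18trunc libraries, and it contained the low value of Clover replicate 2.

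Fragments outside exons gave a readout that does not use the TPM values. Transposable elements lie inside most genes, and the deposited repeat tables count uniquely mapped fragments per element and strand. Summed over elements on the strand of the gene and outside GENCODE 44 exons, 7 of the 10 genes held at least 30 fragments over the 6 libraries. Gene spans were those of the deposited tables, and all elements with fragments also lay within the GENCODE 44 span except 1 of the 72 in RNF43, which lay past its GENCODE end and held 28 of 437 fragments. ASCL2 and SP5, which are short genes, and LGR5 had no such element with fragments. Whether these fragments came from unspliced precursors, retained introns or other transcripts was not tested. They are given as CPM, counts scaled to the aligned fragments of each library.

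None of the 7 passed edgeR's quasi-likelihood test, which called 10 of 7630 genes (0.131%). Their median log2 change was 0.49, beside 0.32 over all genes tested. At an unadjusted p under 0.05, 3 of the 7, AXIN2, NKD1 and TCF7, were higher in Z18trunc and none was lower, and 14.0% of all tested genes were higher at that level. The groups did not overlap for these 3 and LEF1, all 4 being higher in Z18trunc, as were 18.3% of tested genes. With TMM scaling, which removes the shift shared by most genes, the medians were 0.17 and 0.00.

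AXIN2 held 5.61, 4.18 and 4.99 CPM in Clover and 7.53, 7.24 and 7.67 CPM in Z18trunc, from 80 to 169 fragments per library. The Z18trunc values lay close together and well above Clover. The log2 change was 0.60 (SE 0.20, edgeR adjusted p = 0.144), falling to 0.28 with TMM scaling. Of its 19 elements outside exons, a group of 3 next to each other held the most fragments. These were an L2a, a MSTB1 and an AluSx element between 65540272 and 65541177 on chromosome 17, with 73, 123 and 73 fragments over the 6 libraries.

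NKD1 held 6.23, 4.86 and 4.48 CPM in Clover and 7.84, 6.36 and 8.10 CPM in Z18trunc, spread over 125 elements. The lowest Z18trunc and the highest Clover library nearly met. Its log2 change was 0.52 (SE 0.20, edgeR adjusted p = 0.221), and 0.20 with TMM scaling. NKD1 also has 36 elements on exons of its long transcript, and with these included it reached 101, 83.3 and 103 CPM in Clover and 126, 126 and 104 CPM in Z18trunc. That alternative fit called 127 of 9718 genes (1.31%), all higher in Z18trunc. NKD1 passed in it (edgeR adjusted p = 0.0386), and its log2 change of 0.31 (SE 0.08) was close to the 0.34 in TPM, which rests on exonic reads too. AXIN2 passed in the same fit at an edgeR adjusted p of 0.0425, although it has no element on exons and its counts were the same.

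TCF7 held 1.29, 1.46 and 0.917 CPM in Clover and 1.92, 2.69 and 1.71 CPM in Z18trunc, from 18 to 49 fragments per library. It had the largest log2 change of the 7 on this readout, 0.77 (SE 0.31, edgeR adjusted p = 0.239), while its log2 change in TPM was 0.02. With TMM scaling the change in its repeat fragments was 0.46. With the 4 elements on its exons included the sign turned, to -0.18. LEF1 held 0.889 to 1.22 CPM in Clover and 1.26 to 1.76 CPM in Z18trunc (log2 change 0.49, SE 0.34, edgeR adjusted p = 0.519). Its log2 change was 0.17 with TMM scaling. The values of both genes rest on few fragments, as their errors show.

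ZNRF3, RNF43 and NOTUM overlapped between the groups. ZNRF3 had 5.45 ± 1.10 CPM (SD, n = 3) in Clover and 5.65 ± 0.67 CPM in Z18trunc over 208 elements, RNF43 had 3.66 ± 0.30 and 3.45 ± 0.45 CPM, and NOTUM had 1.63 ± 0.28 and 1.61 ± 0.16 CPM. Their log2 changes were 0.05, -0.08 and -0.01, and with TMM scaling -0.26, -0.40 and -0.33.

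**Figure D4:**
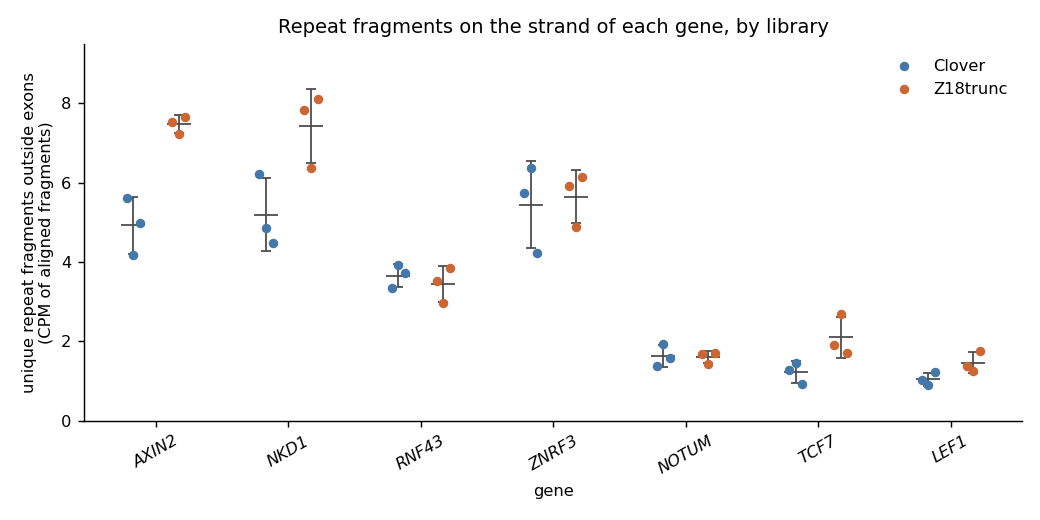
Uniquely mapped repeat fragments on the strand of each gene and outside exons, in CPM of aligned fragments, for the 7 genes tested, with points for 3 Clover (blue) and 3 Z18trunc (orange) libraries and bars for mean and SD. AXIN2 separates the groups most clearly, at 4.18 to 5.61 CPM against 7.24 to 7.67 CPM, and RNF43 and NOTUM do not separate them.

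The setting of the 10 genes was given by the rest of the pathway. Of 63 Wnt pathway components, 52 were tested and none passed limma. Before adjustment, 13 were higher in Z18trunc and 5 lower at p under 0.05, where 25.6% of all tested genes were higher and 2.90% lower. Without overlap, 19 were higher and 4 lower, against 30.1% and 6.73% of all tested genes. Their median log2 change was 0.11, that of all tested genes, and it was -0.05 for ligands and their secretion (11 genes), 0.13 for receptors (13), 0.24 for secreted inhibitors (4), 0.17 for cytoplasmic signalling and the destruction complex (14) and 0.06 for nuclear cofactors (10). The most abundant components were CTNNB1, which encodes β-catenin, with 466 ± 56.5 TPM (SD, n = 3) in Clover and 529 ± 11.0 TPM in Z18trunc (log2 change 0.19, limma adjusted p = 0.269), the ligand WNT6 with 225 ± 13.5 and 217 ± 12.0 TPM, and the kinase GSK3A with 146 ± 2.99 and 148 ± 9.90 TPM.

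Among components above 5 TPM, DKK4 and FZD6 had the highest log2 changes and FZD9 and LGR6 the lowest. DKK4, a secreted antagonist that binds LRP coreceptors and is itself a Wnt target, had 5.52 ± 0.88 TPM (SD, n = 3) in Clover and 10.3 ± 2.37 TPM in Z18trunc (log2 change 0.78, SE 0.17, limma adjusted p = 0.0773). The receptor FZD6 had 5.53 ± 0.76 and 9.17 ± 0.32 TPM (log2 change 0.64, SE 0.10, limma adjusted p = 0.0773). FZD9 was lower, at 8.47 ± 0.65 and 6.58 ± 0.65 TPM (log2 change -0.32, SE 0.09, limma adjusted p = 0.0942), as was LGR6. When only genes with a mean of at least 5 TPM were tested, 474 genes were called, 453 of them higher. Outside the lists, 9895 genes had such a mean. The calls included 3 of at most 52 components, all just under the threshold. These were DKK4 (limma adjusted p = 0.0488), FZD6 (limma adjusted p = 0.0486) and the kinase CSNK1A1 (limma adjusted p = 0.0486). With an intensity trend only CSNK1A1 of the components passed (limma adjusted p = 0.0494). After quantile normalization none of these 3 did (limma adjusted p = 0.135, 0.11 and 0.11). None of the 9 members passed at a mean of at least 5 TPM, and NKD1 came nearest (limma adjusted p = 0.121).

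Of 29 other Wnt target genes, 26 were tested and none passed limma, with 4 higher and none lower at an unadjusted p under 0.05 (25.6% and 2.90% of all tested genes) and a median log2 change of 0.10. DKK1 is in this list and also among the pathway components, and was counted in both. SMOC2, OLFM4 and MMP7 were listed at 0 in all libraries. CCND1, which encodes cyclin D1, was the most abundant, with 749, 709 and 818 TPM in Clover and 941, 924 and 987 TPM in Z18trunc. All its Z18trunc values were higher, and the difference was 0.33 on the log2 scale (SE 0.08, limma adjusted p = 0.0823). PROX1, a homeobox factor, had 5.37 ± 1.54 and 8.76 ± 0.24 TPM (log2 change 0.65, SE 0.18, limma adjusted p = 0.0873). MSX1, a homeobox factor, and APCDD1, a membrane inhibitor of Wnt signalling, were abundant, with log2 changes of -0.03 and 0.05. BMP4 had 115 to 122 TPM in Clover and 120, 58.9 and 130 TPM in Z18trunc, where 1 library gave the low mean, and EPHB3, a guidance receptor of crypt cells, had 15.2 ± 0.37 and 13.7 ± 0.92 TPM (limma adjusted p = 0.258).

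**Figure D5:**
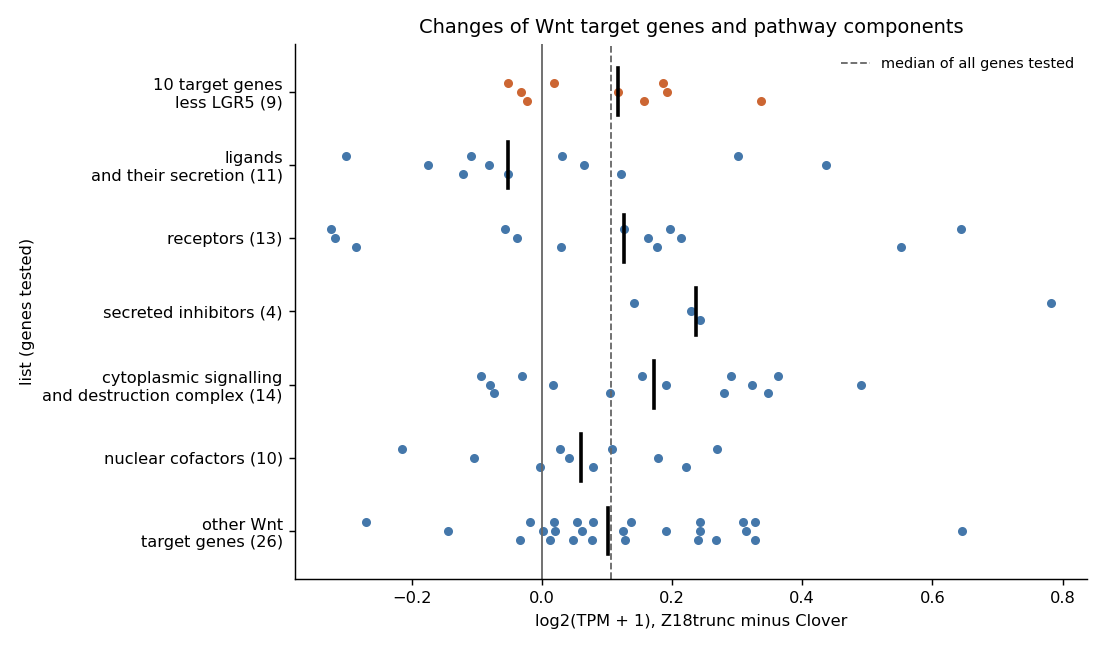
Difference in log2(TPM + 1), Z18trunc minus Clover, of each tested gene in the target list (orange), the pathway components by role and the other Wnt target genes (blue), with the median of each list (bar) and of all genes tested (dashed line). The median of the 9 target genes, 0.12, lies beside that of all genes, 0.11, and DKK4 is the highest point at 0.78. DKK1 is drawn both as a secreted inhibitor and as a target gene.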

How the data were processed

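Polyadenylated RNA of 3 Clover and 3 Z18trunc SW480 libraries was analysed, grouped by the labels' genotype. Per the labels and the study's methods, the authors made stranded paired-end libraries, trimmed reads with cutadapt 4.6, mapped to hg38 and ran SQuIRE. The authors deposited TPM and FPKM per gene (no counts), summed here by symbol, and for repeat elements uniquely mapped counts and estimated counts, both unscaled. The estimated counts were rounded.

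Genes with a mean of at least 1 TPM were tested on log2(TPM + 1), a scale that understates changes of low genes, with limma 3.58.1 in R 4.3.3. Repeat counts on the strand of each gene, outside exons and with at least 30 fragments (bedtools 2.31.1), were tested with edgeR 4.0.16, with aligned fragments as library size. P-values were adjusted by Benjamini-Hochberg and called at 0.05. Intervals are 95%. P-values measure the spread between these libraries. The fits were checked on simulated data with changes larger than those of any member. That check cannot tell whether changes as small as those of the members would be found.

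The members and lists were chosen with earlier results of these data known. Named genes of the other lists were those called, the 3 most abundant and the 2 highest and 2 lowest changes above 5 TPM. Alternatives were a pseudocount of 0.1, other filters, other scalings, FPKM, an intensity trend, DESeq2 1.42.0, a replicate block and leaving out each library.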

Additional observations from a re-analysis of the deposited data

How the results depend on the processing

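No member passed on TPM under any of the 15 alternatives, with the smallest limma adjusted p at 0.106, for NKD1. The number of genes called, 2, was 1 with a pseudocount of 0.1, without the filter, after quantile normalization, with a replicate block and after centring on genes of like transcript length and GC (25 classes, added after the data were seen), but 60 with an intensity trend and 474 when only genes of at least 5 TPM were tested. Leaving out 1 library gave 1 (without Z18trunc replicate 1) to 4 (without Clover replicate 2). ZC3H18, supplied by the vector, was among the genes called under all 15 alternatives (limma adjusted p at most 0.00154). The median change of the members, 0.12, was 0.021 after quantile normalization and -0.047 when centred on the median gene, and leaving out 1 library gave 0.049 (without Clover replicate 2) to 0.21 (without Clover replicate 3). Before adjustment, 3404 genes were higher and 386 lower at p under 0.05, against 1708 and 1448 after quantile normalization and 1357 and 2460 when centred.

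Of 135 member values, 14 turned in sign, none of them passing. Centred on the median gene, RNF43 was -0.047, LEF1 -0.0069 and TCF7 -0.15. TCF7 was also -0.024 after quantile normalization and -0.048 with FPKM. Centred on like length and GC, NOTUM was 0.037, ASCL2 0.064 and SP5 0.017. Leaving out 1 library gave -0.049 (Clover replicate 2) to 0.061 for TCF7, -0.068 to 0.0046 (Z18trunc replicate 3) for NOTUM and -0.048 to 0.018 (Z18trunc replicate 3) for ASCL2.

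On repeat fragments the number of genes called, 10, all higher in Z18trunc, was 1 with TMM scaling, 3 with DESeq2 (all lower), 4 with estimated counts, 3 with a replicate block and 127 with exonic elements. It was 38 without Clover replicate 1, 6 without replicate 3 of either group, 2 without Clover replicate 2 and 0 by edgeR without Z18trunc replicate 2, where unadjusted p-values under 0.05 were found for 782 higher and 17 lower genes. That split was 1065 and 20 in the main test and 241 and 230 with TMM. Signs turned for ZNRF3 (-0.26 with TMM and with DESeq2, -0.0048 with exonic elements, -0.097 without Clover replicate 3 to 0.18 when 1 library was left out), RNF43 (0.082 with estimated counts, -0.17 to 0.013 when 1 library was left out), NOTUM (-0.12 to 0.13 when 1 library was left out) and TCF7 (-0.18 with exonic elements). The causes were not tested.

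Replicate numbers were shared between groups, but same-numbered libraries did not deviate together (correlations over genes of -0.04, 0.02 and -0.04). They were treated as unpaired, although so few libraries cannot exclude a shared batch. The replicate block left every member on the same side of the threshold. The gene tables hold no counts, so the precision of each TPM could not be derived from them.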
